A study of Homo sapiens with 8 samples.

Results

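The genes described here are ASS1, its pseudogene ASS1P1 and 8 further genes of amino acid supply and amino acid stress, ASL, ASNS, PHGDH, PSAT1, ATF4, DDIT3, TRIB3 and SLC7A5. They are 10 of the 12939 genes measured, and each of them has a value in every library. The set was chosen by the measured levels of ASS1 and ASS1P1, which were lower in both knockdowns, so their differences from scramble are given as a description with no test. The other 8 genes were listed for their roles.

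The libraries were made from CSCs of MDA-MB-231, a human triple-negative breast cancer cell line with mesenchymal features. The line stably carried GFP under the Oct4a regulatory region and a red fluorescent vector with scramble shRNA, CDH2 shRNA or Cx43 shRNA, and the cells highest in GFP were sorted as CSCs. CDH2 encodes N-cadherin, an adhesion protein, and Cx43 is a gap junction protein, so the comparisons ask what the loss of either does to CSC transcripts. From cells left overnight after sorting, 3 scramble, 3 CDH2 shRNA and 2 Cx43 shRNA libraries were used. The GFP reporter, the red vector and drug selection were common to all groups, and the CDH2 knockdown was 1 selected clone. No source used here says that the libraries of a group came from separate cultures, so p-values measure only the spread between these libraries, which may be technical.

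Argininosuccinate synthase, the product of ASS1, joins citrulline and aspartate, and argininosuccinate lyase, the product of ASL, then releases arginine and fumarate. Many cancers express little ASS1 and must take arginine from outside, which is the basis of arginine deprivation as a treatment. ATF4 is the transcription factor of the integrated stress response: when amino acids run short or the endoplasmic reticulum is stressed, kinases phosphorylate eIF2, general translation slows, ATF4 is made, and genes for amino acid synthesis, uptake and stress signalling are transcribed.

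The values are log2(CPM + 1), where CPM is the reads of a gene scaled to library size, with the effect of the sequencing run removed by the authors. The depth of the libraries is unknown because the values hold no counts. The mesenchymal genes VIM, CD44, AXL, CAV1, MSN and ANXA1 were all present, with VIM between 9.62 and 9.81. Their summed level was 2328.5 to 2388.6 CPM in scramble, 2489.1 to 2720.0 in CDH2 shRNA and 2495.4 to 2695.5 in Cx43 shRNA, higher in every knockdown library. Of the receptor and epithelial genes, ESR1, PGR and CDH1 had no row analysed here, ERBB2 lay between 5.16 and 5.52, EPCAM between 2.21 and 2.75, and KRT18 was high at 8.14 to 8.78. Of 6 marrow stromal genes only COL1A1 and PDGFRB had values, with a summed level of 53.7 to 66.3 CPM in scramble, 40.4 to 52.6 in CDH2 shRNA and 29.6 to 40.2 in Cx43 shRNA, and of 4 blood cell genes none did. The stromal sum moved in the same direction as ASS1 and the mesenchymal sum in the other, and their part in the results was not tested. Values for CDH2 and for the Cx43 gene were not used here, and the knockdown of these targets was therefore not checked. In bulk libraries, fewer cells of a type and less RNA per cell cannot be told apart.

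ASS1 lay at 6.70, 6.69 and 6.71 in the scramble libraries, at 5.80, 5.84 and 5.81 in CDH2 shRNA, and at 5.96 and 5.92 in Cx43 shRNA. All 5 knockdown libraries were thus below all 3 scramble libraries, and the libraries of a group differed from each other by at most 0.04. In CPM the mean was 103 in scramble, 55.4 with CDH2 shRNA and 60.4 with Cx43 shRNA, which left 53.8% and 58.7% of the scramble level. The differences on the log2 scale were -0.88 (SE 0.07) and -0.76 (SE 0.08). With any of the 8 libraries left out they ranged from -0.90 to -0.87 and from -0.79 to -0.73.

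ASS1P1, a processed pseudogene copied from the ASS1 transcript, showed the same order at a far lower level. Its values were 2.23, 2.16 and 2.29 in scramble, 1.46, 1.53 and 1.39 in CDH2 shRNA, and 1.52 and 1.52 in Cx43 shRNA. The knockdown libraries lay below every scramble library, with differences of -0.77 (SE 0.08) and -0.70 (SE 0.10). The authors dropped low genes, and every gene kept has a library above all the knockdown values of ASS1P1. ASS1P1 was thus kept in the data through its scramble libraries. Its lower knockdown values cannot be separated from this selection, so they are not a second observation of the fall of ASS1. In CPM it kept 47.7% and 50.8% of the scramble level, smaller shares than ASS1, and with a pseudocount of 0.1 its differences were -1.03 and -0.94 against -0.89 and -0.77 for ASS1. The pseudogene had 3.38 to 3.77% of the CPM of ASS1 in scramble, 2.95 to 3.35% in CDH2 shRNA, and 3.06 and 3.13% in Cx43 shRNA.

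ASS1 and ASS1P1 are not independent measurements if reads of the gene were partly assigned to the copy. On hg38 with GENCODE v44, ASS1 lies at chr9:130444961-130501274 on the plus strand with 15 exons in its reference transcript of 1532 bases. ASS1P1 lies at chr6:25023247-25024483 on the minus strand, in 1 exon of 1237 bases, inside the RIPOR2 gene on the same strand, which had no row analysed here. The annotation holds 14 ASS1 pseudogenes, of which ASS1P1 was the 1 with values. Aligned to the ASS1 transcript, ASS1P1 was identical at 1150 of 1228 bases (93.6%), with 78 mismatches and 20 gap bases. The longest identical run was 58 bases, shorter than the 75-base reads, and 0 of the 1163 words of 75 bases in ASS1P1 occurred exactly in an ASS1 transcript.

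A read of 75 bases therefore met at least 1 mismatch between gene and copy, but often few. Over the 915 windows of 75 bases aligned without a gap, the number of mismatches ran from 1 to 9 with a median of 5, and 95 windows (10.4%) had at most 2. The authors assigned reads by an expectation-maximization step, so the value of ASS1P1 is uncertain, and its share of misassigned reads was not tested.

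ASL, which carries out the step after ASS1, had a wide spread. It lay at 4.26, 4.41 and 4.11 in scramble, 4.00, 3.89 and 4.17 in CDH2 shRNA, and 4.06 and 4.02 in Cx43 shRNA. The CDH2 shRNA libraries overlapped with scramble, and the Cx43 shRNA libraries were just below it. The differences were -0.24 (95% interval -0.54 to 0.06, adjusted p = 0.20 by limma) and -0.23 (-0.57 to 0.12, adjusted p = 0.402), neither of them past the test. The sizes rested on single libraries. Without scramble library 2 they were -0.12 and -0.08, and without scramble library 3 or CDH2 shRNA library 3 they were -0.39, with an adjusted p of 0.0203 by limma, and -0.30, with an adjusted p of 0.0991.

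**Figure D1:**
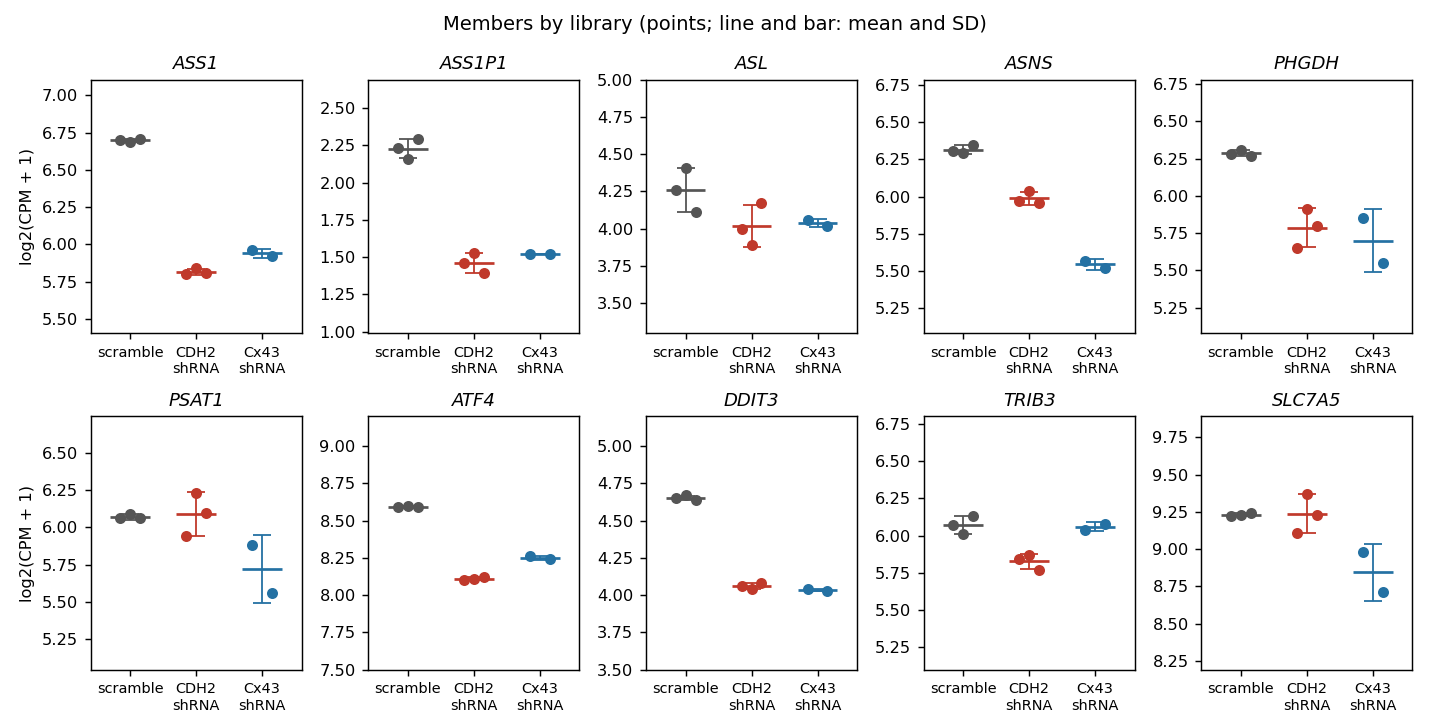
The 10 genes in the 8 libraries, with log2(CPM + 1) on the y axis and the groups on the x axis. Points are libraries, lines are group means and bars the SD of 3 scramble, 3 CDH2 shRNA and 2 Cx43 shRNA libraries, and every panel spans 1.7 units around a centre of its own. ASS1, ASS1P1, ASNS, PHGDH, ATF4 and DDIT3 have all 5 knockdown libraries below all scramble libraries.

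ATF4 itself had a lower transcript level in both knockdowns. It was 8.59, 8.60 and 8.59 in scramble, 8.10, 8.11 and 8.12 in CDH2 shRNA, and 8.26 and 8.24 in Cx43 shRNA. The 3 groups did not overlap, and CDH2 shRNA was lowest. ATF4 fell by 0.48 (SE 0.07) with CDH2 shRNA, to 71.5% of the scramble CPM, at an adjusted p of 0.0215. With Cx43 shRNA the difference was -0.35 (SE 0.08), to 78.7%, and the adjusted p of 0.104 missed the threshold of 0.05. These are transcript levels, while ATF4 activity depends largely on how much of the transcript is translated, which was not measured.

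DDIT3, which encodes CHOP, the transcription factor that links prolonged stress to cell death, is induced by ATF4. Its values were 4.65, 4.67 and 4.64 in scramble, 4.06, 4.04 and 4.08 in CDH2 shRNA, and 4.04 and 4.03 in Cx43 shRNA. Both knockdowns were well below scramble and close to each other. DDIT3 fell by 0.59 (SE 0.07, adjusted p = 0.0198) with CDH2 shRNA and by 0.62 (SE 0.08, adjusted p = 0.0384) with Cx43 shRNA, to 64.9% and 63.7% of the scramble CPM.

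TRIB3, a pseudokinase that DDIT3 and ATF4 induce and that restrains ATF4 signalling, did not follow DDIT3 in Cx43 shRNA. It lay at 6.07, 6.01 and 6.13 in scramble, 5.84, 5.87 and 5.77 in CDH2 shRNA, and 6.04 and 6.08 in Cx43 shRNA. The CDH2 shRNA libraries were below scramble, with a difference of -0.24 (SE 0.08) and an adjusted p of 0.0899. The Cx43 shRNA libraries lay within the scramble range, with a difference of -0.01 (95% interval -0.24 to 0.22, adjusted p = 0.971).

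ASNS makes asparagine from aspartate and glutamine and is a standard reporter of ATF4 activity. It was the member that differed most between the knockdowns, at 6.31, 6.29 and 6.35 in scramble, 5.97, 6.04 and 5.96 in CDH2 shRNA, and 5.57 and 5.52 in Cx43 shRNA. The groups formed 3 separate steps. ASNS fell by 0.33 (SE 0.08, adjusted p = 0.0448) with CDH2 shRNA, to 79.4% of the scramble CPM, and by 0.77 (SE 0.09, adjusted p = 0.0354) with Cx43 shRNA, to 58.2%.

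PHGDH catalyses the first step of serine synthesis from glycolytic intermediates and PSAT1 the next, and both are known ATF4 targets. PHGDH was 6.28, 6.31 and 6.27 in scramble, 5.65, 5.91 and 5.80 in CDH2 shRNA, and 5.85 and 5.55 in Cx43 shRNA. All knockdown libraries were lower, but they were more scattered than those of ASS1 or ATF4. PHGDH fell by 0.50 (SE 0.12, adjusted p = 0.0456) with CDH2 shRNA. With Cx43 shRNA the difference was -0.59 (SE 0.14) with an adjusted p of 0.103, and it ranged from -0.81 without Cx43 shRNA library 1 to -0.37 without Cx43 shRNA library 2. Without scramble library 3 or CDH2 shRNA library 3 it was -0.60 at an adjusted p of 0.0115 by limma.

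PSAT1 was 6.06, 6.09 and 6.06 in scramble, 5.94, 6.23 and 6.10 in CDH2 shRNA, and 5.88 and 5.56 in Cx43 shRNA. The CDH2 shRNA libraries lay on both sides of scramble (0.02, 95% interval -0.29 to 0.33, adjusted p = 0.931), and the Cx43 shRNA libraries lay below it (-0.35, -0.72 to 0.01, adjusted p = 0.245). The latter difference was -0.60 without Cx43 shRNA library 1 and -0.11 without Cx43 shRNA library 2.

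SLC7A5 is LAT1, the transporter that brings leucine and other large neutral amino acids into the cell together with its partner SLC3A2. It had values of 9.22, 9.23 and 9.24 in scramble, 9.11, 9.37 and 9.23 in CDH2 shRNA, and 8.98 and 8.71 in Cx43 shRNA. As for PSAT1, CDH2 shRNA straddled scramble (0.01, 95% interval -0.27 to 0.29, adjusted p = 0.965) and Cx43 shRNA was below it (-0.38, -0.71 to -0.06), here with an adjusted p of 0.18. It was -0.58 without Cx43 shRNA library 1 and -0.19 without Cx43 shRNA library 2. SLC3A2 differed by -0.27 (adjusted p = 0.154) and -0.52 (adjusted p = 0.12). In PHGDH, PSAT1 and SLC7A5 alike, CDH2 shRNA library 1 was low and library 2 high, and Cx43 shRNA library 1 was above library 2. For every gene, same-numbered libraries deviate from their group means by amounts that add up to at most 1.0e-04, so these opposite deviations are a property of the run-corrected values.

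**Figure D2:**
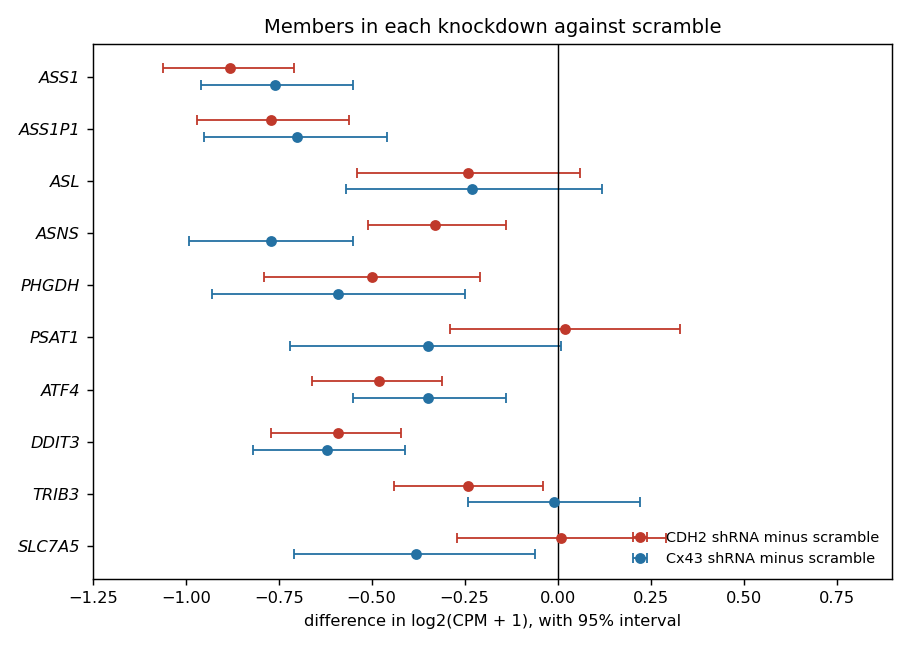
The difference of each gene from scramble in log2(CPM + 1) on the x axis, for CDH2 shRNA in red and Cx43 shRNA in blue, with 95% intervals from limma. On this scale ASS1 has the lowest value with CDH2 shRNA (-0.88), while with a pseudocount of 0.1 ASS1P1 does (-1.03). With Cx43 shRNA ASNS (-0.77) and ASS1 (-0.76) lie side by side. The values and intervals of ASS1 and ASS1P1 are a description since they chose the set, and intervals of these genes that leave out 0 are no test.

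Counts over the members were made without ASS1 and ASS1P1, whose fall chose the set. Of the other 8 genes, 0 were past threshold in CDH2 shRNA versus scramble by limma, meaning an adjusted p under 0.05 and a difference of at least 0.73 on the log2 scale, where 1.2% of all genes were past it in the lower direction. An unadjusted p under 0.05 was reached by 5 of the 8, against 37.5% of all genes, and with Cx43 shRNA also by 5 of the 8, against 21.6%. With no demand on the size, 4 of 8 had an adjusted p under 0.05 and were lower, ATF4, DDIT3, ASNS and PHGDH, where 6.98% of all genes were. In 5 of 8 all CDH2 shRNA libraries lay below all scramble libraries, which held for 24.8% of all genes, and 6 of 8 had a lower mean, against 49% of all genes.

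In Cx43 shRNA versus scramble, where the threshold was a difference of at least 0.58, 2 of the 8 genes were past it in the lower direction, ASNS and DDIT3, against 0.781% of all genes. All Cx43 shRNA libraries lay below all scramble libraries in 7 of 8, the exception being TRIB3, where 21.4% of all genes did, and 8 of 8 had a lower mean, against 42.4%. The scramble libraries are shared by both comparisons, so the counts are not independent of each other.

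The calls depended on few libraries and on how the spread was estimated. With scramble library 1, CDH2 shRNA library 1, CDH2 shRNA library 2, Cx43 shRNA library 1 or Cx43 shRNA library 2 left out, none of the 8 genes had an adjusted p under 0.05 by limma in either knockdown, and 0 to 10 of all genes were past threshold. In the same fits no gene of the pathway lists below had an adjusted p under 0.05. Without scramble library 3 or CDH2 shRNA library 3, ATF4, DDIT3, PHGDH and ASL were the 4 lower with CDH2 shRNA, and PHGDH joined ASNS and DDIT3 past threshold with Cx43 shRNA. Of all genes 723 and 730 were past threshold there, against 267 and 153 in the main fit. A fit of only the groups compared left 0 of 8 at an adjusted p under 0.05 with CDH2 shRNA and 6 of 8 with Cx43 shRNA. In that fit 0 and 741 of all genes were past threshold, so the counts of members moved with those of all genes.

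The residuals vary in 2 directions where the model counts 3 degrees of freedom. With 2 degrees of freedom none of the 8 kept an adjusted p under 0.05 by limma. With CDH2 shRNA the adjusted p was then 0.0576 for DDIT3, 0.0818 for ATF4, 0.0984 for PHGDH and 0.183 for ASNS, and with Cx43 shRNA it was 0.0894 for ASNS and 0.154 for DDIT3. Of the genes of the pathway lists named here, JDP2, SMOX, SLC1A4 and NUPR1 kept it with CDH2 shRNA, and SMOX with Cx43 shRNA. SESN3, which lay above scramble in Cx43 shRNA, is described further below without a test. The calls of ASNS and DDIT3 with Cx43 shRNA were also lost among the 75% of genes with the highest means, both at an adjusted p of 0.0536.

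The knockdowns were then compared with each other, which the choice of the set did not use. None of the 10 genes was past threshold by limma, as was none of all genes (0%), while 4 of the 10 and 20% of all genes (2591) had an unadjusted p under 0.05. ASS1 was 0.12 lower in CDH2 shRNA than in Cx43 shRNA libraries, a difference of -0.12 (95% interval -0.33 to 0.08, adjusted p = 0.45), and ASS1P1 differed by -0.06 (-0.30 to 0.18, adjusted p = 0.756). The intervals hold differences of up to 0.33 and 0.30 in size, so equal levels were not shown. The 4 genes were ASNS (0.44 higher in CDH2 shRNA, 95% interval 0.22 to 0.66, adjusted p = 0.124), SLC7A5 (0.39, adjusted p = 0.196), PSAT1 (0.37, adjusted p = 0.247) and TRIB3 (-0.23, adjusted p = 0.247). In each of them both same-numbered pairs of libraries had the direction of the mean, at 0.39 and 0.52 for ASNS and 0.05 and 0.67 for PSAT1. With a library left out, ASNS ranged from 0.39 to 0.48, SLC7A5 from 0.19 to 0.59 and PSAT1 from 0.12 to 0.61.

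Per kilobase of the reference transcript, ATF4 had the highest level of the set in scramble, at 272 ± 1.5 CPM per kilobase (SD, n = 3). SLC7A5 followed with 131 ± 0.88 and ASS1 with 67.2 ± 0.33. PHGDH had 41.3 ± 0.61, ASNS 33.0 ± 0.70 and PSAT1 30.0 ± 0.40 CPM per kilobase. TRIB3 (26.9 to 29.3 over the libraries) and DDIT3 (26.5 to 27.1) overlapped, while no other neighbours in this order did, and ASL (8.53 ± 0.93) and ASS1P1 (2.98 ± 0.18) were lowest. In both knockdowns ASS1 still ranked after ATF4 and SLC7A5, at 36.1 ± 0.53 with CDH2 shRNA and 39.4 ± 0.69 with Cx43 shRNA (n = 2), above the highest library of the genes ranked below it (33.6 for PSAT1 with CDH2 shRNA and 30.3 for PHGDH with Cx43 shRNA). ASNS went from above PSAT1 in scramble to below it, at 26.2 ± 0.88 against 30.5 ± 3.1 with CDH2 shRNA and 19.2 ± 0.49 against 23.6 ± 3.8 with Cx43 shRNA.

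The sequences before the transcription starts of the members were searched because the ATF4 targets ASNS and DDIT3 fell in both knockdowns. Of the other ATF4 targets in the set, PHGDH fell with CDH2 shRNA only, and PSAT1, SLC7A5 and TRIB3 fell in neither. RefSeq promoters on GRCh38.p14 were at hand for 9 of the 10 genes, all but ASS1P1, and the 250 bases before each start were read on both strands. The word TGATGNAA, a form of the C/EBP-ATF response element to which ATF4 binds, was found in ASNS alone among the members and in 1061 of 27305 genes (3.89%). The word CACGTG, an E-box, was found in ASS1, ATF4 and SLC7A5 and in 2110 of 27305 genes (7.73%), and the motifs share no bases in a member. A match is a run of letters and not a measured binding site.

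The 30 bases around the match in ASNS are shown since ASNS was called in both knockdowns. They lie at chr7:97872458-97872487 on the minus strand, with the match in capitals 61 to 68 bases before the start.
ASNS: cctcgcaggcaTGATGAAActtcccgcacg
The 250 bases before the ASS1 start are shown for the gene that led the choice of the set. They lie at chr9:130444711-130444960 on the plus strand, with the E-box in capitals 66 to 71 bases before the start.
ASS1: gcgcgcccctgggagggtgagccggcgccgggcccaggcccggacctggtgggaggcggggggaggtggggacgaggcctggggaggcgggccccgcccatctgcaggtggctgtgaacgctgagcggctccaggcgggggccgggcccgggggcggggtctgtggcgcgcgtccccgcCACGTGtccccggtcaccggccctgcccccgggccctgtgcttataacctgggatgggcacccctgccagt

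Genes known as ATF4 targets were mostly lower in value in both knockdowns, and a part of them fell with CDH2 shRNA. Of a list of 43, 40 had values, 6 of them members of the set. With CDH2 shRNA 31 of 40 had a lower mean, with a median difference of -0.25 against 0.01 over all genes, and 11 fell and 0 rose at an adjusted p under 0.05, where 6.98% and 7.29% of all genes did. With Cx43 shRNA 33 of 40 had a lower mean, with a median of -0.23 against 0.04, and 3 fell, where 0.788% of all genes did. Without the members, 27 of 34 were lower in each knockdown, with medians of -0.23 and -0.18, and 8 and 1 fell. With 2 degrees of freedom 3 and 0 of the 40 fell, with only the groups compared 0 and 16, and without the replicate block 16 and 14. Past threshold were 4 and 3 of the 40 in the main fit, then 3 and 0, 0 and 8, and 5 and 9. Of all 12939 genes 267 and 153 were past threshold in the main fit, then 231 and 82, 0 and 741, and 331 and 532. The list counts thus moved with those of all genes. With any library left out, 28 to 33 and 29 to 34 of the 40 were lower, but the count at an adjusted p under 0.05 and lower went from 0 to 14 with CDH2 shRNA and from 0 to 13 with Cx43 shRNA. Without scramble library 3 or CDH2 shRNA library 3, 5 of the 40 rose with CDH2 shRNA. In these fits 723 of all genes were past threshold with CDH2 shRNA and 730 with Cx43 shRNA. These counts describe the list and no test of the list was made.

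JDP2, a repressor of the AP-1 family, had the lowest value of the list with CDH2 shRNA. It was 5.29, 5.25 and 5.34 in scramble, 4.21, 4.33 and 4.21 in CDH2 shRNA, and 4.59 and 4.51 in Cx43 shRNA, with no overlap. It fell by 1.04 (SE 0.08, adjusted p = 0.016) and by 0.74 (SE 0.10, adjusted p = 0.0376), past threshold in both knockdowns. CHAC1, which breaks down glutathione and is an ATF4 and CHOP target, went from 5.05, 4.73 and 5.34 in scramble to 4.26, 4.25 and 3.80 in CDH2 shRNA, a fall of 0.94 (SE 0.22, adjusted p = 0.0449), and was at 4.12 and 4.45 in Cx43 shRNA (-0.76, adjusted p = 0.175). The spread of CHAC1 between scramble libraries was wider than that of JDP2. NUPR1, a small stress-induced chromatin protein, fell by 0.82 (SE 0.16, adjusted p = 0.0333) with CDH2 shRNA and was -0.38 from scramble with Cx43 shRNA (adjusted p = 0.296).

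Of the amino acid transporters called in CDH2 shRNA, SLC1A4 and SLC6A9 are also on the list of ATF4 targets and were counted there. SLC1A4, an exchanger of alanine, serine, cysteine and threonine, fell by 0.80 (SE 0.13, adjusted p = 0.0253), past threshold, and was -0.70 from scramble with Cx43 shRNA (adjusted p = 0.0927). SLC6A9, the glycine transporter GlyT1, fell by 0.58 (adjusted p = 0.0415), and SLC43A2, a carrier of large neutral amino acids, by 0.50 (adjusted p = 0.0434). In Cx43 shRNA they were at -0.71 (adjusted p = 0.0908) and -0.61 (adjusted p = 0.0925). These were the 3 of 19 transporters that fell with CDH2 shRNA, and 0 rose, where 6.98% and 7.29% of all genes did, while the median of the list was 0.01 with CDH2 shRNA and -0.16 with Cx43 shRNA. The arginine transporter SLC7A1 was 0.39 above scramble with CDH2 shRNA (adjusted p = 0.0679) and at -0.04 with Cx43 shRNA (adjusted p = 0.886).

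**Figure D3:**
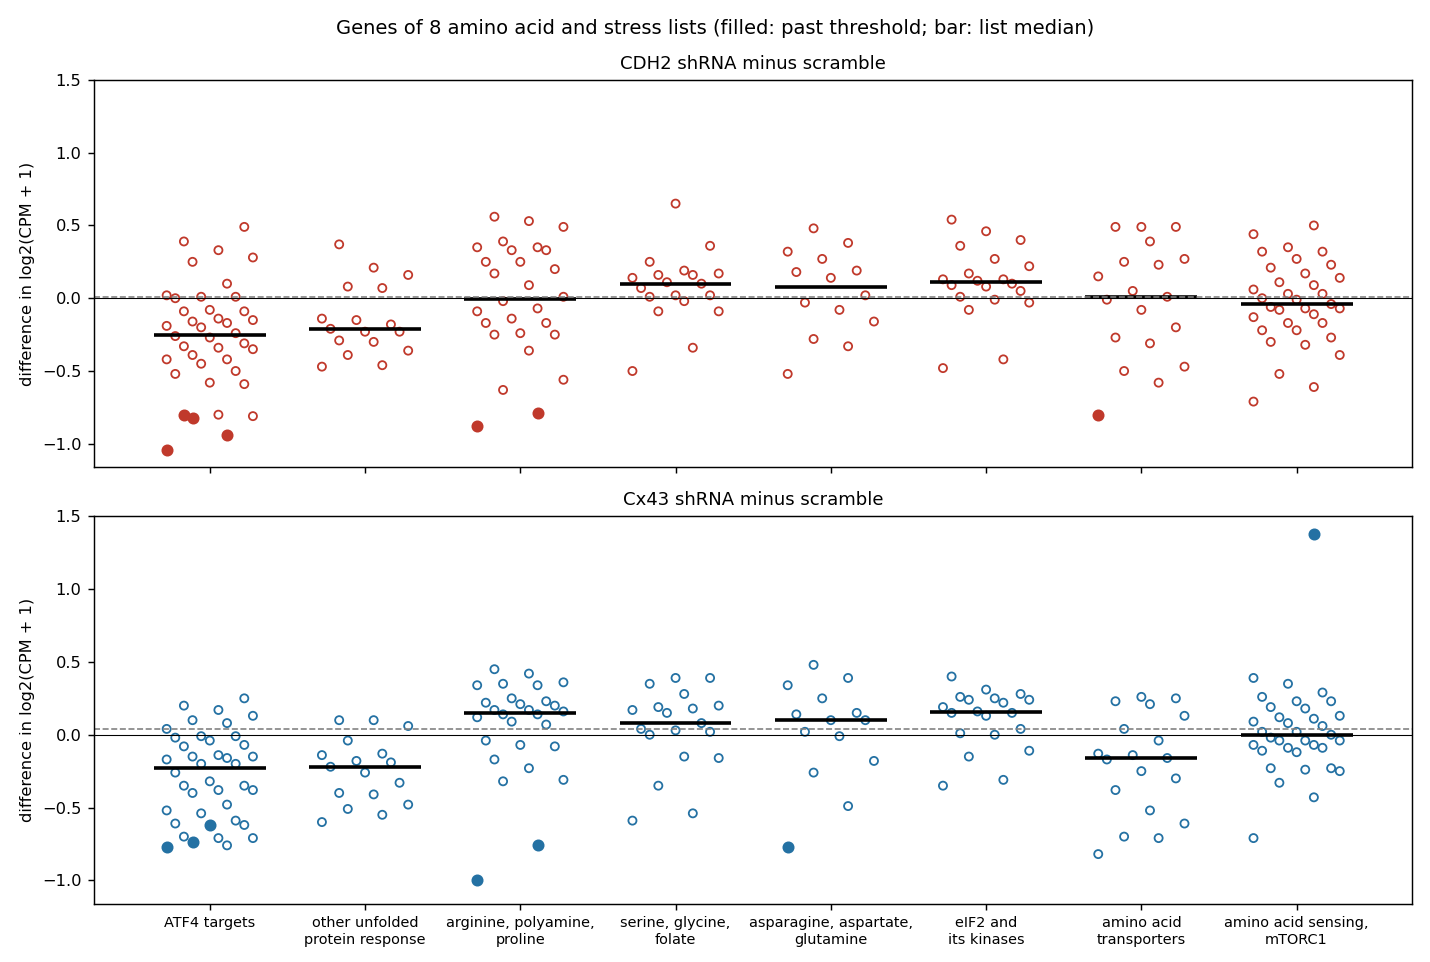
Differences from scramble in log2(CPM + 1) on the y axis for the genes of 8 lists, CDH2 shRNA above and Cx43 shRNA below. Circles are genes, filled where past threshold, black bars are list medians and the dashed line is the median of all genes. Of the filled circles, ASS1 in the arginine list chose the set. SESN3 in the mTORC1 list was kept in the data through the Cx43 shRNA libraries, so its level is a description. The ATF4 targets have medians of -0.25 and -0.23, and the other unfolded protein response genes -0.21 and -0.22.

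Around ASS1, the arginine, polyamine and proline list (28 of 35 genes with values) showed no common direction, with 14 lower and 14 higher in CDH2 shRNA and 9 lower and 19 higher in Cx43 shRNA. Of all genes 49% and 42.4% were lower. Apart from ASS1, which chose the set, the gene called in both knockdowns was SMOX, spermine oxidase, which turns spermine back into spermidine. SMOX was 4.93, 5.07 and 4.81 in scramble, 4.07, 4.10 and 4.27 in CDH2 shRNA, and 4.03 and 3.86 in Cx43 shRNA. It fell by 0.79 (SE 0.11, adjusted p = 0.0215) and by 1.00 (SE 0.13, adjusted p = 0.0389), to 56.4% and 48.4% of the scramble CPM.

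With CDH2 shRNA, PAOX, the oxidase of acetylated polyamines, also fell by 0.63 (adjusted p = 0.0211), and AZIN2, which frees ornithine decarboxylase from its antizyme, by 0.56 (adjusted p = 0.0344). In the other direction, CAD, the enzyme that starts pyrimidine synthesis from glutamine and aspartate, rose by 0.56 (SE 0.11, adjusted p = 0.0339). CAD went from 6.65, 6.65 and 6.68 in scramble to 7.11, 7.35 and 7.20, and was 7.20 and 6.95 in Cx43 shRNA (0.42, adjusted p = 0.151). AMD1, which makes the aminopropyl donor for polyamines and was named after its values were seen, rose by 0.35 (adjusted p = 0.0464). In Cx43 shRNA the corresponding values of PAOX, AZIN2 and AMD1 were -0.32, -0.17 and 0.35, with adjusted p of 0.168, 0.50 and 0.125.

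In the serine, glycine and folate list (19 of 24 genes with values), PHGDH was the 1 gene that fell with CDH2 shRNA, and MTRR, which reactivates methionine synthase, the 1 that rose, by 0.36 (adjusted p = 0.0462). Of all genes 6.98% fell and 7.29% rose, so the list does not stand out. The medians of 0.10 and 0.08 were close to those of all genes. In the asparagine, aspartate and glutamine list (14 of 18 genes), PC, pyruvate carboxylase, which feeds oxaloacetate and so aspartate, fell with ASNS in CDH2 shRNA, by 0.52 (SE 0.09, adjusted p = 0.0256), and was at -0.49 in Cx43 shRNA (adjusted p = 0.0854). PPAT, which uses glutamine at the start of purine synthesis, rose by 0.48 (SE 0.08, adjusted p = 0.0253) and was at 0.34 in Cx43 shRNA (adjusted p = 0.131).

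Upstream of ATF4, no eIF2 kinase was called. EIF2AK4 (GCN2), which senses uncharged tRNA, was at 0.08 (95% interval -0.13 to 0.28) and 0.01 (-0.23 to 0.25). EIF2AK3 (PERK), the kinase of the endoplasmic reticulum, was at 0.27 and 0.24, EIF2AK1 (HRI) at 0.13 and 0.31, and EIF2AK2 (PKR) at 0.36 (adjusted p = 0.0689) and 0.15. Of the 20 genes of eIF2 and its kinases with values, ATF4 was the 1 that fell with CDH2 shRNA, and PPP1R15B, the constitutive eIF2 phosphatase subunit (0.54, adjusted p = 0.0458), and EIF2S3, the gamma subunit of eIF2 (0.46, adjusted p = 0.047), rose. Of all genes 6.98% fell and 7.29% rose there, so these counts do not stand out. With Cx43 shRNA none of these 20 had an adjusted p under 0.05 by limma, and 2 had an unadjusted p under 0.05, against 21.6% of all genes. These are levels of transcripts, and phosphorylation was not measured.

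Rows of other pseudogenes of members were ATF4P4 and SLC7A5P2. ATF4P4 was at -0.28 (adjusted p = 0.105) and -0.23 (adjusted p = 0.328), and SLC7A5P2 at 0.16 (adjusted p = 0.714) and -0.10 (adjusted p = 0.896), all short of the test.

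Across the 8 libraries, the profile of ASS1 was nearest to those of PNPLA2 (Pearson r = 0.9987), WNT5B (0.9979), APOL1 (0.9972), BRD3 (0.9966) and FTH1P7 (0.9965), of 12938 genes ranked. PNPLA2 is a triglyceride lipase, WNT5B a secreted ligand, APOL1 an apolipoprotein, BRD3 a bromodomain protein, and FTH1P7 a pseudogene of the ferritin heavy chain. The points fall into 3 groups and share the run correction, so these coefficients mainly give the relative spacing of the group means, above all scramble against both knockdowns. The sizes differed, since PNPLA2 was -0.67 and -0.56 from scramble and WNT5B -0.29 and -0.27. In the same order ASS1P1 stood at place 20 (0.9918), ATF4 at 24 (0.9903), DDIT3 at 43 (0.9866) and PHGDH at 462 (0.9175), while TRIB3 (0.6695), SLC7A5 (0.2949) and PSAT1 (0.2559) were far down. Of the 5 nearest genes, 3 stayed among the first 5 without Cx43 shRNA library 1 or 2, 4 or 5 without another library, and 0 by Spearman's rho.

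**Figure D4:**
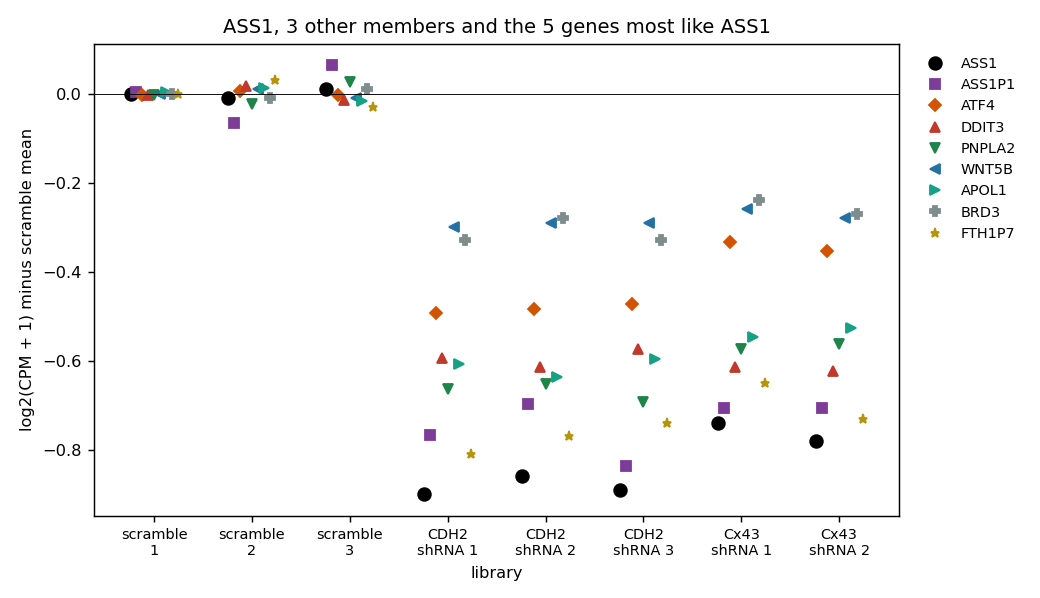
Values of ASS1, ASS1P1, ATF4, DDIT3 and the 5 genes with the profiles nearest to ASS1, as log2(CPM + 1) minus the scramble mean, in each of the 8 libraries on the x axis. Points are single libraries, spread sideways by gene. All 9 genes lie near 0 in scramble and below it in the 5 knockdown libraries, with ASS1 lowest in each on this scale.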

How the data were processed

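RNA-Seq values of 8 libraries of sorted CSCs were used. The authors aligned 75-base reads to hg38 in Partek Flow with an expectation-maximization step (STAR 2.6.1 in the submitters' processing notes), took out 1 low-quality sample, corrected for the run and dropped low genes. What they deposited is log2(CPM + 1). The annotation is not given in the sources used here. The 1 line without a gene name was left out. The members and the 8 gene lists were chosen with earlier results of these data known.

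All 12939 genes were fitted with limma 3.58.1 in R 4.3.3 (lmFit, eBayes), with group and, as a block, replicate number. P-values are two-sided and adjusted by Benjamini-Hochberg over all genes. "Rose" and "fell" mean an adjusted p under 0.05. "Past threshold" also asks for the fold change the methods used, or 1.5 between the knockdowns. The pairing comes from the replicate numbers in the labels, shared by the 3 groups. Same-numbered libraries deviate from their group means by amounts that add up to 0, so the correlations of these deviations (-1 to 0.951) follow from the correction and do not test the pairing. Genes named are the members and their pseudogenes, list genes past threshold, the 3 largest further differences per list with an adjusted p under 0.05, eIF2 kinases, certain amino acid sensors and transporters, and the 5 genes most like ASS1. The arginine sensor CASTOR1 was not analysed here. The fit was tested on simulated data. Gene positions are from GENCODE v44, and alignments were made with Biopython 1.88. The alternatives tried were no block, quantile normalization, median centring, a mean-variance trend, a pseudocount of 0.1, a filter on low means, only the groups compared, other fold thresholds, 2 residual degrees of freedom, and leaving out each library.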

Additional observations from a re-analysis of the deposited data

How the results depend on the processing

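Depth is unknown, so what it limits cannot be given. The counts of members include ASS1 and ASS1P1, and those of list genes include ASS1, which chose the set, so these counts are a description. With Cx43 shRNA the list genes also include SESN3, kept in the data through the Cx43 shRNA libraries. Without ASS1 and ASS1P1, the main counts of members were 0 with CDH2 shRNA and 2 with Cx43 shRNA. Main counts past threshold were 2 members, 6 of 170 list genes and 267 of all genes with CDH2 shRNA, 4, 6 and 153 with Cx43 shRNA, and 0, 0 and 0 between the knockdowns. Without the replicate block they were 2, 7 and 331, then 5, 15 and 532, then 0, 1 and 360. With only the groups compared they were 0, 0 and 0, then 5, 13 and 741, then 0, 3 and 414. Among the 75% of genes with the highest means they were 1, 5 and 150, then 0, 0 and 4. With 2 residual degrees of freedom they were 2, 5 and 231, then 0, 2 and 82, and without the replicate block as well, an alternative chosen after seeing the data, 2, 5 and 231, then 0, 2 and 97. Quantile normalization left 1 member with CDH2 shRNA, no fold threshold gave 6, 27 and 1846 there, and a fold of 1.5 gave 3, 10 and 605. Median centring, the pseudocount of 0.1 and the mean-variance trend left these counts within 1.5 times.

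With each library left out in turn, members past threshold ranged from 0 to 2, from 0 to 5 and from 0 to 0 in the 3 comparisons, list genes from 0 to 8, 0 to 16 and 0 to 4, and all genes from 0 to 723, 0 to 730 and 0 to 545. Except where fewer genes, libraries or degrees of freedom entered by construction, the cause was not tested.

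Some differences changed sign. With CDH2 shRNA, leaving out libraries gave PSAT1 -0.09 to 0.14, SLC7A5 -0.10 to 0.11, SLC7A5P2 -0.04 to 0.49 and SESN3 -0.08 to 0.10. With Cx43 shRNA it gave TRIB3 -0.07 to 0.02, SLC7A5P2 -0.76 to 0.57, AZIN2 -0.36 to 0.02, EIF2AK4 -0.09 to 0.12 and SLC7A1 -0.17 to 0.08. Between the knockdowns it gave ASL -0.09 to 0.12 and PHGDH -0.14 to 0.31. PSAT1 was -0.03 with CDH2 shRNA and EIF2AK4 -0.04 with Cx43 shRNA after quantile normalization, ASL was 0.0012 between the knockdowns and EIF2AK4 -0.0028 after median centring, and TRIB3 was 0.02 and SLC7A1 0.0032 with Cx43 shRNA and only the groups compared.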

Other observations

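Beyond the ATF4 targets, the genes of the other branches of the unfolded protein response, which raise chaperones and degradation in the endoplasmic reticulum, were mostly low in value but not called. Of 17 genes, 12 had a lower mean with CDH2 shRNA (-0.47 to 0.37, median -0.21) and 14 with Cx43 shRNA (-0.60 to 0.10, median -0.22), against 49% and 42.4% of all genes. By limma 0 of 17 had an adjusted p under 0.05 in either knockdown, and 5 had an unadjusted p under 0.05 in each, against 37.5% and 21.6% of all genes.

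The genes through which amino acids are sensed by mTORC1 were split. Of 35 with values, 19 were lower with CDH2 shRNA and 17 with Cx43 shRNA, against 49% and 42.4% of all genes, with medians of -0.04 and 0.00. At an adjusted p under 0.05 by limma, 3 of the 35 fell and 1 rose with CDH2 shRNA, where 6.98% and 7.29% of all genes did. With CDH2 shRNA, LAMTOR4 and LAMTOR2, parts of the Ragulator that anchors mTORC1 at the lysosome, fell by 0.71 (SE 0.16, adjusted p = 0.0449) and by 0.61 (SE 0.09, adjusted p = 0.0223). FNIP2, a partner of folliculin that was named after its values were seen, rose by 0.44 (adjusted p = 0.0256). With Cx43 shRNA these 3 were at -0.24, -0.25 and 0.23, with adjusted p of 0.509, 0.256 and 0.20. SLC38A9, the lysosomal arginine sensor, was at -0.22 (adjusted p = 0.113) and -0.11 (adjusted p = 0.546).

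The sestrins hold mTORC1 in check when amino acids run short. SESN2 was lower in all libraries of both knockdowns, and SESN3 was higher in both Cx43 shRNA libraries. SESN2, an ATF4 target, was 5.58, 5.44 and 5.73 in scramble, 5.04, 5.24 and 4.92 in CDH2 shRNA, and 4.91 and 4.84 in Cx43 shRNA. It fell by 0.52 (SE 0.13, adjusted p = 0.0495) with CDH2 shRNA and was at -0.71 (SE 0.15, adjusted p = 0.0856) with Cx43 shRNA. Between the knockdowns SESN2 differed by 0.20 (95% interval -0.17 to 0.56, adjusted p = 0.499 by limma), so a difference between them was not shown. SESN3 was 1.81, 1.74 and 1.84 in scramble and 1.95, 1.74 and 1.78 in CDH2 shRNA, but 3.04 and 3.32 in Cx43 shRNA. In CDH2 shRNA the difference of SESN3 from scramble was 0.03 (adjusted p = 0.881 by limma). With Cx43 shRNA it was 1.38 (SE 0.13), at 8.06 CPM against 2.47 in scramble. The latter is given without a test, since SESN3 was kept in the data through the Cx43 shRNA libraries. The difference of SESN3 between the knockdowns was -1.36 (SE 0.13), with the same direction in both same-numbered pairs (-1.09 and -1.58), and is likewise given without a test. The calls of this paragraph and the one before were lost without scramble library 1 and without library 1 or 2 of either knockdown. With a library left out, SESN3 was 1.18 to 1.59 above scramble with Cx43 shRNA.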
